A study of Mus musculus with 8 samples.

Results

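The 10 genes described here encode the transporter and the enzymes at the control points of glycolysis, together with Tigar, which encodes a phosphatase that slows the pathway. They were chosen by name, with earlier results of these data known. Glucose enters through the transporter encoded by Slc2a1, is trapped by the hexokinases (Hk1, Hk2) and is committed by the phosphofructokinases (Pfkl, Pfkm, Pfkp). It leaves as pyruvate through pyruvate kinase (Pkm). After that Ldha makes lactate, and the kinase encoded by Pdk1 switches off pyruvate dehydrogenase. All 10 were measured, by 19 probe sets, among 17098 genes and the 28898 probe sets that the platform annotation assigns to 1 gene; the brightest probe set over all arrays stands for a gene. Mouse embryonic stem (ES) cells of strain C57BL/6, HPRT deficient in both groups and at passages 19 to 22, were kept for 8 h in 2.5 µM cisplatin or in the solvent dimethyl sulfoxide (DMSO), with 4 samples in each group and 1 array per sample. The cells had been grown on feeder cells and then on gelatin. Cisplatin is a platinum drug that crosslinks DNA. Nothing in the labels says that each sample was its own culture, and a p-value here covers only how these samples differ, which may be technical.

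Glycolysis turns glucose into pyruvate, and its rate is set at the few steps that run in a single direction. Hexokinase and phosphofructokinase each come as several enzymes from separate genes, which differ in tissue and in regulation. Cultured ES cells, like many dividing cells, use glucose quickly and release lactate. TIGAR, named as a regulator of glycolysis and apoptosis induced by p53, removes a signal molecule that activates phosphofructokinase, so that more glucose can pass into the pentose phosphate pathway, which supplies ribose and NADPH.

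The 250 bases upstream of the transcription start are shown for 4 of the genes because they carry the contrasts described below: Hk2 had the largest fall of the 10, Slc2a1 lay close to the threshold, Ldha hardly moved and Tigar is the gene named for p53. The sequences are from RefSeq, build GRCm38.p6, read 5′ to 3′ on the strand of the gene, and all 10 genes were found in that table. In Hk2, Slc2a1 and Ldha capitals mark ACGTG on either strand, a form of the core bound by HIF factors. ACGTG also lies within the E-box CACGTG read by MYC factors. The other form of the HIF core, GCGTG, was neither marked nor counted. In Tigar capitals would mark the p53 half-site, the short motif that p53 binds in pairs.
Hk2, chr6:82774455-82774704, minus strand: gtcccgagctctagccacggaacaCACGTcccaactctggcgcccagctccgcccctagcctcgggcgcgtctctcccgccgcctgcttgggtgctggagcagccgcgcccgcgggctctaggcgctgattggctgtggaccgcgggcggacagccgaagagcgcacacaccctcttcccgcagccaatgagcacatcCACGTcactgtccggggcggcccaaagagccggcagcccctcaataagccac
Slc2a1, chr4:119108495-119108744, plus strand: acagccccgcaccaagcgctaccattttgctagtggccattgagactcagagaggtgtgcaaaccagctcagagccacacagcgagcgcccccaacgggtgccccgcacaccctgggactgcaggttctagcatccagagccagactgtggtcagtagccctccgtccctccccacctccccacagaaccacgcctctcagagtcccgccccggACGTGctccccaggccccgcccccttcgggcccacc
Ldha, chr7:46845554-46845803, plus strand, the first of 2 listed starts: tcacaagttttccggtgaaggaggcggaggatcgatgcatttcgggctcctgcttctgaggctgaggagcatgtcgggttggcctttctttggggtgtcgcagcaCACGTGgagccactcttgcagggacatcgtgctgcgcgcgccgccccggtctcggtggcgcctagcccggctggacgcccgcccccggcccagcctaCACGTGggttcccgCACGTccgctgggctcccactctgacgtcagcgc
Tigar, chr6:127109553-127109802, minus strand: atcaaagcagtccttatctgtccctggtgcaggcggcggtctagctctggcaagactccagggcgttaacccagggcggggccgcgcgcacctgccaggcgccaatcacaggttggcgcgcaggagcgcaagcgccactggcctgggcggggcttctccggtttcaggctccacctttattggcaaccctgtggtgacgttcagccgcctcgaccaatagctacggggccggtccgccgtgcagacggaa
The Hk2 window held 2 matches to ACGTG, counted on both strands, the Slc2a1 window 1 and the Ldha window 5, since each of its 2 E-boxes counts once on each strand. At least 1 match was found in 6 of the 17 windows of the 10 genes, and in 16.6% of all 32851 windows of this length. Those 6 windows belong to Hk2, Slc2a1, Ldha, Pkm and Pfkm; the windows of Pdk1, Pfkp, Pfkl, Hk1 and Tigar held none. CACGTG itself occurred in 6.02% of all windows. No p53 half-site lay in any window of the 10 genes, on either strand, against 7.13% of all windows. A match is only a run of letters, and its absence says only that these letters are not in this window.

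After cisplatin, Hk2 fell 1.55-fold, the largest change of the 10 genes at their leading probe sets, while Hk1, which encodes another widely expressed hexokinase, gave 0.03 ± 0.11 (log2 change, cisplatin minus control, ± SE, 4 arrays against 4). The phosphofructokinase genes went apart: Pfkm rose by 0.35 ± 0.07, Pfkp fell by 0.25 ± 0.07 on the log2 scale and Pfkl was at -0.02 ± 0.05. Pdk1 fell by 0.28 ± 0.06 on the log2 scale. Slc2a1, Pkm, Ldha and Tigar did not pass the test. In all, 1 gene was higher and 3 were lower of 10 (limma, Benjamini-Hochberg adjusted p under 0.05 over all genes), where 19.3% of all genes tested were called, 11.6% as higher and 7.69% as lower. The median change of the 10 genes was -0.12, and that of all genes 0.01. At an adjusted p under 0.01 the calls among the 10 were Hk2 and Pfkm, and Hk2 ranked 193 among the 17098 genes by p.

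**Figure D1:**
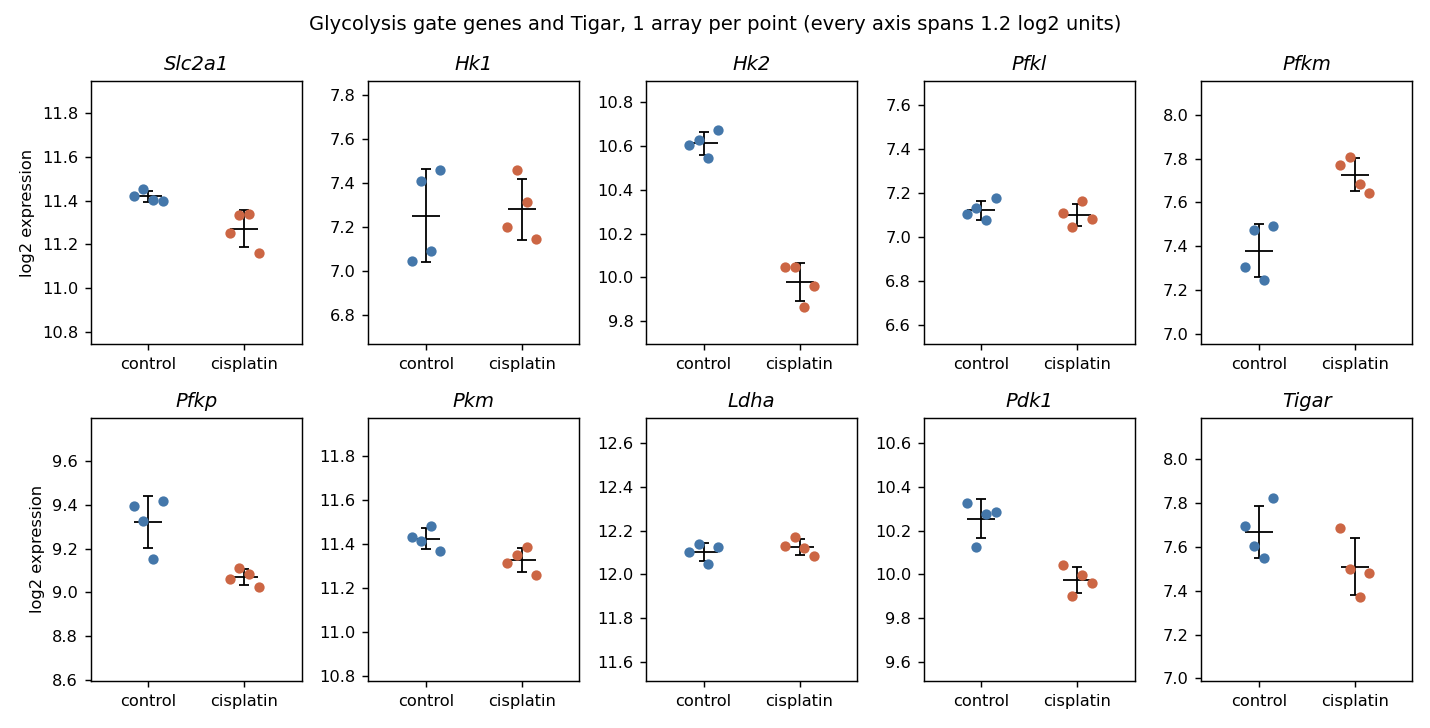
Log2 expression (vertical axes) of the brightest probe set of each of the 10 genes on the 4 control and 4 cisplatin arrays; points are arrays, the long tick is the mean and the bars are 1 SD. The Hk2 values with cisplatin (9.86 to 10.05) lie below those of the controls (10.54 to 10.67), the Pfkm values lie above theirs, and those of Hk1, Pfkl, Pkm, Ldha and Tigar overlap.

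Each gene is read by its own probes, so levels are compared between groups and never between genes. All values are on the log2 scale of the deposited table, in which control probes 25 bases long with 24 G or C read 3.10, taken here as background. Such probes with fewer G or C read lower, 2.44 with 17 and 2.10 with 5, so that "below background" depends on this choice: of the genes named so below, Rrad, G6pc, Pck1, Fgf6 and Fgf23 lay above 2.44 in both groups. None of the 10 leading probe sets was below 3.10. Of all 17098 genes tested, 5359 were below it in both groups. The shares over all genes given here include those dim genes. In a bulk sample, fewer cells of a type and less RNA per cell cannot be told apart. The median of the tested genes was higher by 0.13 on the cisplatin arrays. Setting these medians equal, called centring below, lowered all changes by the same 0.13. The calls over all genes moved from 1989 higher and 1314 lower to 1087 higher and 3925 lower. The median change of all genes went from 0.01 to -0.12 under centring. With it none of the 10 genes was higher and 6 were lower: Hk2, Pdk1, Pfkp, Slc2a1, Pkm and Tigar. Quantile normalization applied again gave 1575 higher and 1711 lower.

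Mdm2 and Cdkn1a, targets of p53 that restrain it and stop the cell cycle, rose by 1.48 ± 0.12 and 1.22 ± 0.12. Of 7 ES cell markers measured, 3 were lower and none higher, and their mean per array was 10.85 to 10.91 with cisplatin and 11.05 to 11.11 in the controls. Of 15 fibroblast markers, relevant because of the feeders, 7 were below background in both groups, 3 were higher (Mmp2, Thy1 and Fbln2, the last of them below background) and 1 lower (Fn1); without control replicate 3, 1 was higher and 1 lower. Their mean per array was 4.11 to 4.42 with cisplatin and 4.15 to 4.29 in the controls, and Col1a1 and Col1a2 averaged 3.46 and 2.49 in the controls. Of 11 germ layer and trophoblast markers 1 was higher and 1 lower. After centring, 5 ES cell markers were lower, 2 fibroblast markers were higher and 2 lower, and 3 germ layer and trophoblast markers were lower and none higher. The part of these markers in the results was not tested. The 3′ minus 5′ difference of the Actb control probe sets, a measure of RNA integrity, was 0.52 to 0.53 with cisplatin and 0.50 to 0.57 in the controls. Hprt was at 0.24 ± 0.16 (adjusted p = 0.373 by limma); where its probes lie relative to the lesion of these cells was not examined, so it does not check the label.

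Glucose entry was read through Slc2a1, which encodes GLUT1, the transporter of most dividing cells. Its brightest probe set gave 11.25, 11.33, 11.34 and 11.16 on the cisplatin arrays of replicates 3 to 6, and 11.42, 11.45, 11.40 and 11.40 on those of the controls. Each treated array was below each control, yet the change of -0.15 ± 0.06 missed the threshold (limma adjusted p = 0.0986; 95% confidence interval -0.27 to -0.02). The other probe set gave 9.83, 9.83, 9.79 and 9.69 against 9.98, 10.04, 9.96 and 9.99, again with no overlap, and it passed the test over all probe sets at -0.21 ± 0.06 (limma adjusted p = 0.0306). The gene was called as lower when the most variable probe set or the mean of both stood for it (limma adjusted p = 0.0413 and 0.0355), and also after centring (0.00653). Of the 10 genes, 5 had groups that did not overlap at the leading probe set (Slc2a1, Hk2, Pfkm, Pfkp and Pdk1), against 24.3% of all genes.

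Hk2 encodes a hexokinase that binds mitochondria and is abundant in muscle and in many tumours. The treated arrays read 10.05, 10.05, 9.86 and 9.96, and the control arrays 10.61, 10.63, 10.54 and 10.67. The lowest control stood 0.50 above the highest treated array. The means were 9.98 ± 0.09 (SD, n = 4) and 10.61 ± 0.05, a change of -0.63 ± 0.06 (limma adjusted p = 9.99e-05; 95% interval -0.77 to -0.50). The gene has 1 probe set, so the alternatives that choose or average probe sets used the same values. It was called under all 18 alternative settings tried for it, with changes from -0.76 to -0.59.

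Hk1 encodes the hexokinase of brain and red cells, present in most cell types. Its values were 7.20, 7.46, 7.31 and 7.15 with cisplatin and 7.05, 7.41, 7.09 and 7.46 in the controls. The groups overlapped, and arrays of a group were spread more widely than for Hk2 (SD 0.14 and 0.21). The 95% interval of the change, -0.21 to 0.27 (limma adjusted p = 0.899), allows a shift in either direction. A dimmer probe set, at 3.59 ± 0.21 and 3.61 ± 0.13, gave -0.02 ± 0.11.

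The difference Hk2 minus Hk1 was taken within each array, which removes any scaling of the array. It was 2.85, 2.58, 2.55 and 2.81 with cisplatin and 3.56, 3.22, 3.45 and 3.21 in the controls. Each treated array lay below each control. The shift of -0.66 reached the smallest p this design allows, 0.0286 (two-sided exact permutation test over 70 assignments of the arrays; adjusted over the 4 gene pairs examined, also 0.0286). That p had to follow, since the Hk2 groups stood 0.50 apart. The highest Hk1 control (7.46) exceeded the lowest treated Hk1 array (7.15) by less than that. The p therefore adds nothing to the fall of Hk2. The size of the difference on an array has no meaning of its own, since the probes differ. Only its change has meaning.

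Pfkm encodes the muscle form of phosphofructokinase and was the gene of the 10 that rose. It read 7.77, 7.81, 7.69 and 7.64 with cisplatin and 7.31, 7.47, 7.25 and 7.49 in the controls. The lowest treated array was above the highest control by 0.15. The rise of 0.35 ± 0.07, or 1.27-fold, had an adjusted p of 0.00730 (limma; 95% interval 0.19 to 0.51). The gene, read by the same 1 probe set in all of them, was called under 17 of 18 alternatives. After centring the change was 0.22 (limma adjusted p = 0.0640).

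Pfkp, the platelet form, moved the other way. Its brighter probe set read 9.06, 9.11, 9.09 and 9.03 with cisplatin, and 9.39, 9.33, 9.15 and 9.41 in the controls. Control replicate 5 lay closest to the treated arrays. The change was -0.25 ± 0.07 (limma adjusted p = 0.0236; 95% interval -0.40 to -0.10). The dimmer probe set gave 4.49, 4.44, 4.50 and 4.36 against 5.59, 5.11, 4.85 and 5.16, a fall of 0.73 ± 0.13 on the log2 scale (adjusted p = 0.00332 over all probe sets). The call at the brighter one was narrow: leaving out cisplatin replicate 3, 5 or 6, or 1 of control replicates 3, 4 and 6, raised the limma adjusted p to between 0.0501 and 0.0696.

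Pfkl, the liver form, was not called. The values were 7.11, 7.04, 7.17 and 7.08 with cisplatin and 7.10, 7.13, 7.07 and 7.17 in the controls, and the groups overlapped. The 95% interval of the change was -0.14 to 0.10 (limma adjusted p = 0.844). Its other probe sets gave -0.09 ± 0.08 and 0.05 ± 0.10.

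Within arrays, the phosphofructokinase genes shifted against each other. Pfkm minus Pfkl was 0.66, 0.77, 0.52 and 0.56 with cisplatin and 0.20, 0.34, 0.17 and 0.32 in the controls, a shift of 0.37. Pfkp minus Pfkl shifted by -0.23 and Pfkp minus Pfkm by -0.60. In each of these pairs the groups did not overlap, and each gave the smallest possible p of 0.0286 (two-sided exact permutation test, adjusted over the 4 pairs 0.0286). For Pfkp minus Pfkm this had to follow, since Pfkp fell and Pfkm rose with no overlap in either gene. For Pfkm minus Pfkl it also had to follow, since the Pfkm groups stood 0.15 apart. The highest treated Pfkl array (7.17) exceeded the lowest Pfkl control (7.07) by less than that. The p of either pair therefore adds nothing to the changes of Pfkp and Pfkm. For Pfkp minus Pfkl the nearest arrays, 2.07 with cisplatin and 2.08 in the controls, almost met. With its most variable probe set for Pfkl, Pfkm minus Pfkl shifted by 0.30 and missed the threshold (exact adjusted p = 0.114).

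**Figure D2:**
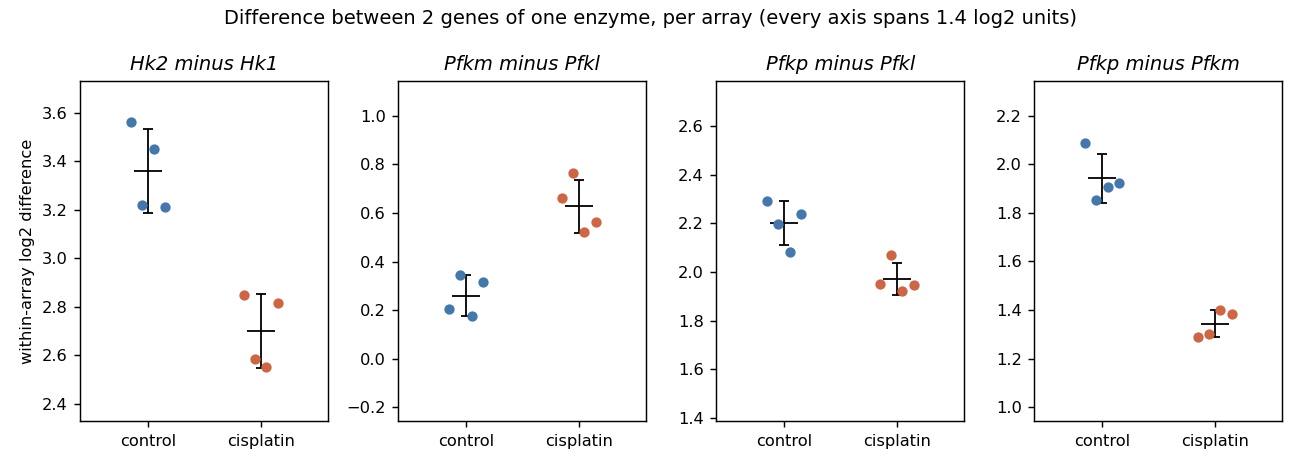
Within-array log2 difference (vertical axes) between 2 genes of the same enzyme, for hexokinase (Hk2 minus Hk1) and the pairs of phosphofructokinase genes; points are the 4 control and 4 cisplatin arrays, long ticks are means and bars 1 SD. With cisplatin the difference Hk2 minus Hk1 changed by -0.66 and Pfkp minus Pfkm by -0.60, and no pair has overlapping groups.

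At the exit of the pathway, Pkm, which encodes the pyruvate kinase of most tissues, read 11.32, 11.35, 11.39 and 11.26 with cisplatin and 11.44, 11.41, 11.48 and 11.37 in the controls. The highest treated array lay above the lowest control. The change of -0.10 ± 0.05 did not pass (limma adjusted p = 0.254; 95% interval -0.21 to 0.02). Centring took it to -0.23 (adjusted p = 0.0128).

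Ldha, which encodes the muscle-type subunit of lactate dehydrogenase, read 12.13, 12.17, 12.12 and 12.08 with cisplatin and 12.10, 12.14, 12.05 and 12.13 in the controls. The groups overlapped. The change of 0.02 ± 0.05 has a 95% interval of -0.09 to 0.13 (limma adjusted p = 0.816), and after centring it was -0.11 (adjusted p = 0.172).

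Pdk1 encodes a kinase that switches off pyruvate dehydrogenase. Its brightest probe set read 10.04, 9.90, 9.996 and 9.96 with cisplatin and 10.33, 10.12, 10.28 and 10.29 in the controls. The groups were apart by 0.079 at their nearest arrays. The change was -0.28 ± 0.06, or 1.21-fold lower (limma adjusted p = 0.0104), and the gene was called under all 18 alternatives tried, with changes from -0.41 to -0.18. A further probe set fell by 0.26 ± 0.08 on the log2 scale (adjusted p = 0.0382 over all probe sets). The dimmest one did not follow: 7.80, 7.91, 7.87 and 7.80 with cisplatin against 7.89, 7.82, 7.79 and 7.82, a change of 0.01 ± 0.06 with a 95% interval of -0.11 to 0.14.

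Tigar is the gene of the 10 that is named for induction by p53. None of its 3 probe sets passed limma's test, and they did not point the same way. The brightest read 7.69, 7.50, 7.37 and 7.48 with cisplatin and 7.69, 7.60, 7.55 and 7.82 in the controls, a change of -0.16 ± 0.08 (limma adjusted p = 0.228; 95% interval -0.34 to 0.02). The next read 6.73, 6.37, 6.59 and 6.70 against 6.52, 6.52, 6.38 and 6.63, at 0.09 ± 0.09 (adjusted p = 0.588 over all probe sets). The dimmest read 5.90, 6.15, 6.07 and 6.20 against 5.69, 6.07, 5.85 and 5.89, at 0.21 ± 0.09 (limma unadjusted p = 0.0475, adjusted p = 0.171). In each the groups overlapped. The largest rise that any of the intervals allows is 0.41, against measured rises of 1.48 for Mdm2 and 1.22 for Cdkn1a. Not all reported p53 targets rose that much. The 7 metabolic ones measured, described below, ran from -0.19 (Pank1) to 1.26 (Cpt1c).

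The choice of probe set decided the sign for Tigar. With the most variable probe set the change was 0.21 (limma adjusted p = 0.174), with the mean of the probe sets it was 0.04 (0.681), and after centring the brightest one passed as lower at -0.29 (0.0416). Its nearest measured genes in the reference annotation were Fgf6 and Fgf23 on one side and Ccnd2 and the transcript 9330179D12Rik on the other. Ccnd2, a G1 cyclin gene, was at -0.04 ± 0.08 and was not called, and the other three lay below background in both groups. The genes whose profile over the 8 arrays came closest to that of the brightest Tigar probe set were Cxxc1, Trh, Szrd1, Arfgap1 and Bop1, with root mean square differences of 0.0359 to 0.0423 on the log2 scale after each gene was centred on its mean. None of these was called by limma as reported; Arfgap1 was called as lower under 5 of 18 alternatives, and Bop1 and Szrd1 under 1 each, centring. The same measure placed Tbl1xr1, Rai14, Nhsl1, Tle4 and Sbf2 nearest to Hk2 (0.0443 to 0.0564). The measure includes the difference between the groups, so genes near Hk2 or Tigar have a similar change by their selection.

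**Figure D3:**
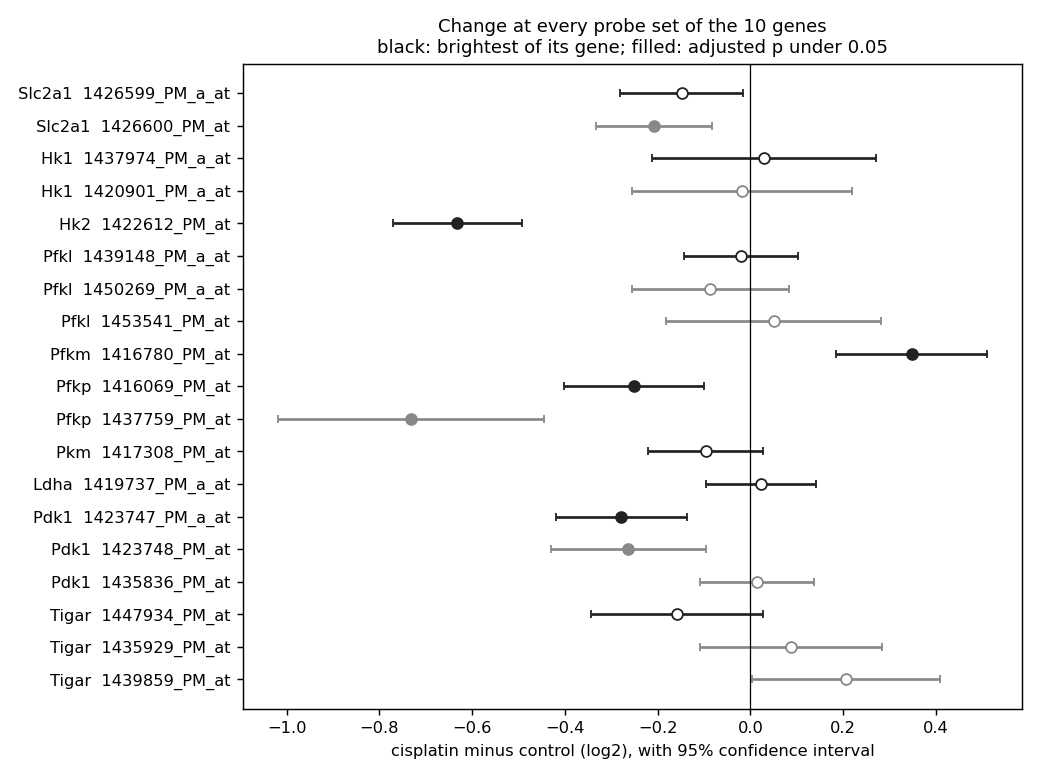
Change with cisplatin (horizontal axis, log2, cisplatin minus control) at each of the 19 probe sets of the 10 genes, with its 95% confidence interval from the fit over all probe sets; black marks the brightest probe set of a gene and filled points passed at an adjusted p under 0.05. The probe sets of Slc2a1 and of Pfkp lie below 0, 1 of the 3 for Pdk1 sits at 0.01, and the 3 for Tigar run from -0.16 to 0.21.

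Over the 19 probe sets, 6 were lower and 1 was higher at an adjusted p under 0.05 in limma's fit over all probe sets, where 16.3% of them were called. The 6 belong to Slc2a1, Hk2, Pfkp and Pdk1, and the higher one to Pfkm.

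Between the gates, 11 of 16 listed genes for the reversible steps and further isoforms were measured. Of these 1 was higher and none lower, and 5 had an unadjusted p under 0.05 in limma. Many genes passed that level. Among all 17098 genes a limma unadjusted p of 0.0252 (Slc2a1) ranked 4364, and one of 0.0829 (Tigar) ranked 6218. Their median change was 0.07. The higher one was Pgam2, the muscle form of phosphoglycerate mutase, at 0.40 ± 0.08 (limma adjusted p = 0.00501). Gapdh was at -0.02 ± 0.05, Pgk1 at 0.02 ± 0.05, Tpi1 at 0.01 ± 0.06 and Aldoa, an aldolase, at 0.07 ± 0.06. After centring 1 gene was higher and 1 lower.

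Of the PFKFB enzymes, which make and remove the activator of phosphofructokinase that TIGAR also removes, 1 of 3 measured was called. Pfkfb4 read 4.28, 4.54, 4.73 and 4.18 with cisplatin and 3.88, 3.64, 3.79 and 4.05 in the controls. Its groups lay apart by 0.13 at the nearest arrays, and it rose by 0.59 ± 0.13 (limma adjusted p = 0.00885). Pfkfb3 was at 0.20 ± 0.12 (adjusted p = 0.283). Among 10 other genes of glucose and lactate transport none was called by limma at the leading probe set. An unadjusted p under 0.05, to be read on the scale given above, was found for 4 of them. Below background in both groups were 4 of the 10. Bsg, which encodes a chaperone of lactate transporters, had the smallest p, at 0.14 ± 0.05 (limma adjusted p = 0.0703). Slc2a3, a glucose transporter gene, was at -0.16 ± 0.06. Its other probe sets were lower in the fit over all probe sets, as described at the end. After centring 3 of the 10 were lower.

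Genes that decide the fate of pyruvate gave 2 higher and none lower of 13 measured. Pdp1, the phosphatase that reverses the action of PDK enzymes, read 6.69, 6.80, 6.63 and 6.68 with cisplatin and 6.25, 6.31, 6.36 and 6.17 in the controls. It was higher on each treated array than on any control and rose by 0.43 ± 0.06 (limma adjusted p = 0.000984). With its most variable probe set Pdp1 missed the threshold at 0.35 (adjusted p = 0.0680). Pcx, which encodes pyruvate carboxylase, rose by 0.33 ± 0.06 (limma adjusted p = 0.00330). The pyruvate dehydrogenase subunit genes Pdha1 and Pdhb were at -0.01 ± 0.05 and -0.0018 ± 0.05. After centring 2 genes were higher and 2 lower.

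In the pentose phosphate pathway 2 of 5 measured genes were higher and none lower; the median of the list was 0.11. Pgls, the lactonase of its oxidative arm, rose by 0.33 ± 0.08 (limma adjusted p = 0.0153) and Rpia, the ribose phosphate isomerase, by 0.26 ± 0.06 (adjusted p = 0.0109). Both calls ended after centring (0.20 and 0.13, adjusted p = 0.0714 and 0.113). Tkt, the transketolase, was at -0.0017 ± 0.05.

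Of 6 genes that run glucose synthesis in the opposite direction, 2 were higher and 1 lower, and G6pc and Pck1 were below background in both groups. Fbp1, a bisphosphatase that undoes the phosphofructokinase step, read 4.74, 4.72, 4.92 and 4.70 with cisplatin and 3.44, 3.87, 3.78 and 3.61 in the controls, against a background of 3.10. The groups were far apart, and Fbp1 rose by 1.10 ± 0.10 (limma adjusted p = 6.90e-05). Fbp2, its relative in muscle, rose by 0.90 ± 0.10 (adjusted p = 0.000279) from 3.51 ± 0.12 (SD, n = 4). Pck2, the mitochondrial phosphoenolpyruvate carboxykinase, fell by 0.57 ± 0.09 on the log2 scale (limma adjusted p = 0.00130).

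Among 12 regulators of glycolytic genes 1 was higher and 1 lower, with a median of -0.08. Mlxipl, which encodes the glucose-responsive factor ChREBP, rose by 0.80 ± 0.09 (limma adjusted p = 0.000250). Mycn fell by 0.27 ± 0.06 on the log2 scale (adjusted p = 0.01004), but was not called with its most variable probe set or the mean of its probe sets (adjusted p = 0.114 and 0.138). Hif1a, the oxygen-regulated activator of many glycolytic genes, was at -0.08 ± 0.06 and Myc at -0.09 ± 0.07, and neither was called. After centring 5 of the 12 were lower.

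Of 10 further metabolic genes listed as reported p53 targets, 7 were measured. Of these 4 were higher and none lower, where 11.6% of all genes were called as higher. The median change of the 7 was 0.41. Pank1 went the other way, without a call at its leading probe set (-0.19 ± 0.08). Its other probe set was lower at -0.20 ± 0.05 (limma adjusted p = 0.0291 over all probe sets). With the mean of probe sets, or without control replicate 6, 1 of the 7 was lower. Cpt1c, a carnitine palmitoyltransferase of the brain type, rose by 1.26 ± 0.11, Lpin1, the phosphatase lipin, by 1.17 ± 0.15 and Aldh4a1, an enzyme of proline breakdown, by 0.49 ± 0.07 (limma adjusted p between 8.89e-05 and 0.00102). Rrad, a small GTPase, passed as higher (limma adjusted p = 0.0443) with both groups below background (2.93 and 2.52), where the size of a change is not well measured; without dim genes 3 of 6 were higher and the median was 0.31. The call of Rrad was lost under 8 of 17 alternatives, with single arrays left out among them: cisplatin replicate 3 or 4, and 1 of control replicates 4, 5 and 6 (highest adjusted p over all alternatives 0.126). After centring 3 of the 7 were higher and 1 lower. On the same arrays the leading probe set of Tigar was at -0.16 ± 0.08; a difference between Tigar and these genes was not tested.

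**Figure D4:**
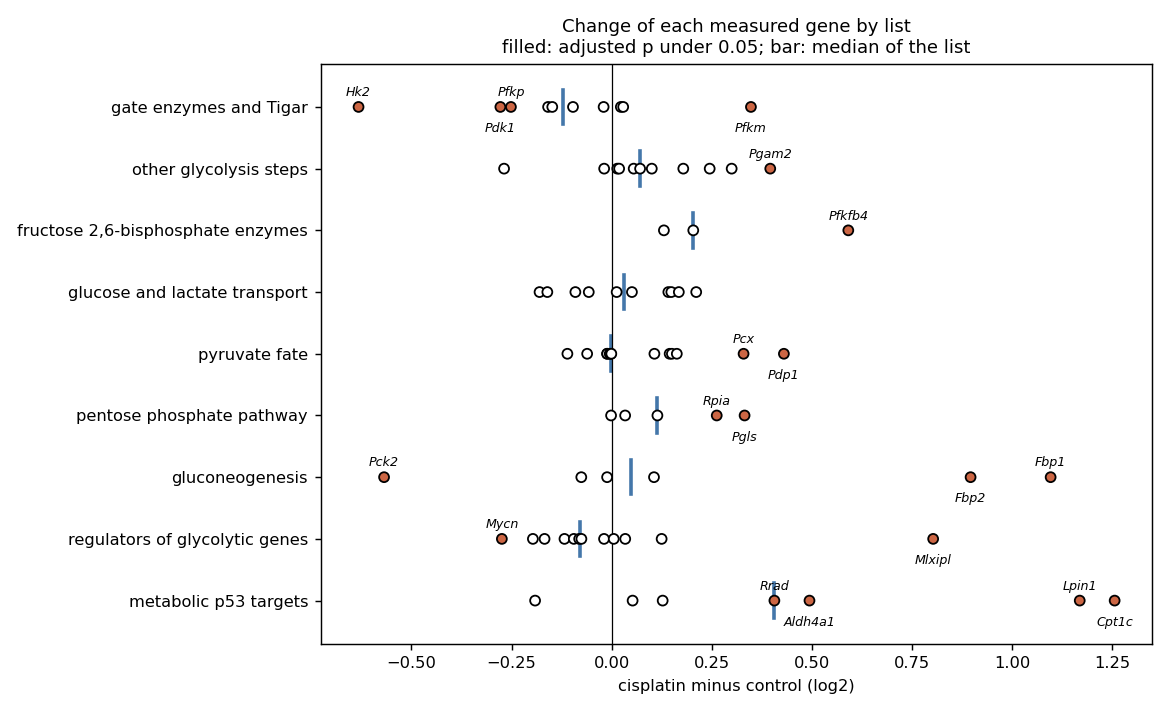
Change with cisplatin (horizontal axis, log2) of each measured gene among the 10 gate and Tigar genes and in 8 lists of related genes; filled points passed at an adjusted p under 0.05 and are named, and bars mark list medians. The gate genes run from -0.63 for Hk2 to 0.35 for Pfkm, while Fbp1, Cpt1c and Lpin1 lie above 1.

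**Figure D5:**
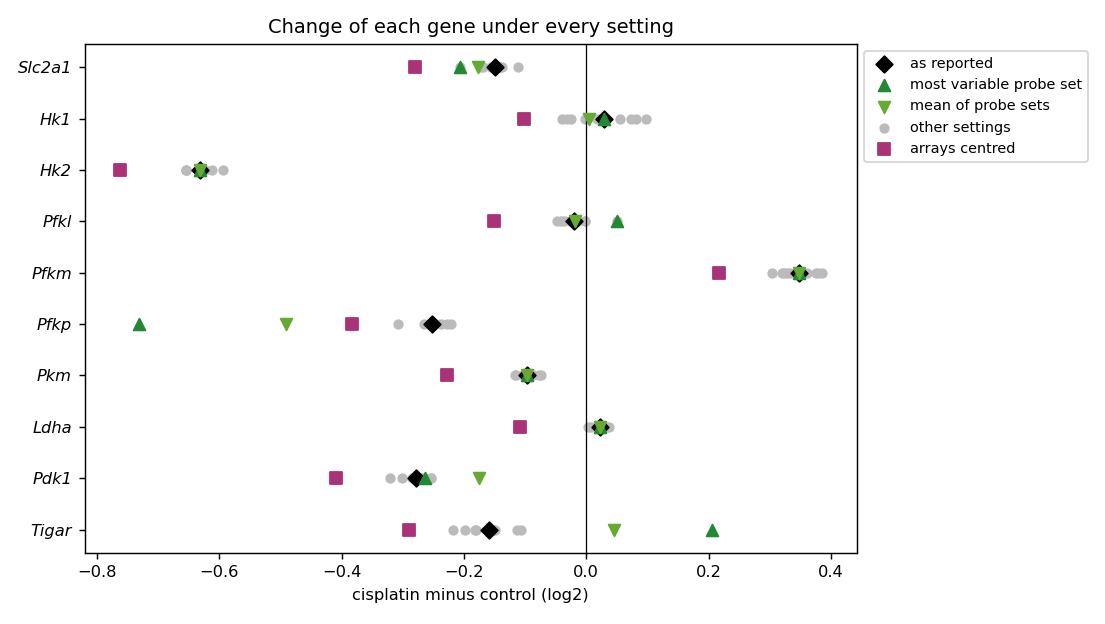
Change with cisplatin (horizontal axis, log2) of each of the 10 genes as reported (diamonds) and under each alternative setting. Hk2 stays between -0.76 and -0.59, Pfkp ranges from -0.73 to -0.22, and Tigar lies on both sides of 0, from -0.29 to 0.21.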

How the data were processed

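The log2 expression values were deposited by the authors as a single table, made with RMA per the submitters' processing notes, which also name limma without a version. RNA was labelled by a 3′ amplification kit, per the labels' protocols. Of 45141 probe sets, 28898 have 1 gene in the platform annotation; controls (104), probe sets of several genes (551) and of none (15588) were left out. Symbols were updated through RefSeq (GRCm38.p6), and the brightest probe set stood for each gene. The groups were compared with limma 3.58.1 in R 4.3.3, with group as the single term and Benjamini-Hochberg adjustment over 17098 genes, or over 28898 probe sets where so stated. The fit was also run on simulated data, with independent noise and far fewer changed genes than were called here. Its outcome is not given, and no result here rests on it. The number of arrays, 4 per group, limits the precision (median SE 0.08). The members and lists were chosen with earlier results of these data known. Named genes are the members, the called genes of a list by smallest p (or, with none called, the one with the smallest p), Hprt, Mdm2, Cdkn1a, the neighbours of Tigar and the nearest profiles; other names were chosen after their values were seen. Alternatives changed the probe set, normalization, variance model, filter, threshold or arrays. Figures used matplotlib 3.10.9.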

Additional observations from a re-analysis of the deposited data

Results flagged for a closer look

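Of 112 groups of 4 arrays examined over the genes named, the probe sets of the 10 genes and the pair differences, 5 held an array that stood apart from the other three by Dixon's criterion; chance gives about 1 in 20. The dimmest Pfkl probe set read 4.56 in control replicate 3 against 4.74 to 4.75 in the rest of its group. Rpia read 6.61 in cisplatin replicate 3 against 6.75 to 6.76 in the rest of its group. Fbp1 read 4.92 in cisplatin replicate 5 against 4.70 to 4.74 in the rest of its group. Tbl1xr1 read 7.67 in cisplatin replicate 5 against 7.80 to 7.82 in the rest of its group. Rai14 read 8.90 in control replicate 5 against 8.98 to 8.99 in the rest of its group.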

How the results depend on the processing

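Of 762 values for the 43 named genes under the alternatives, 705 kept their direction and side of the threshold. Where they did not, the cause was not tested. Among these are alternatives that leave the change of a gene as it was, such as a choice of probe set where it has 1. The count of all calls was 5012 after centring and 1855 at an adjusted p under 0.01, where 2 of the 10 genes were called. Leaving out 1 array gave 2617 to 3042 calls over all genes and 3 to 4 of the 10. The direction turned, without a call, for Tigar (most variable probe set 0.21, mean 0.045), Hk1 (quantile normalization -0.0017, centring -0.10, single arrays left out -0.040 to 0.098), Ldha (centring -0.11), Pfkl (0.051 with the most variable probe set and without the _a_at, _s_at and _x_at probe sets), Cxxc1 (most variable, 0.018), Fgf23 (centring, -0.092) and, with single arrays left out, Ccnd2 (-0.088 to 0.0082), Fgf6 (-0.082 to 0.053) and 9330179D12Rik (-0.065 to 0.0054). Hk1 and Ldha have _a_at probe sets alone and gave no value without these.

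Replicate numbers 3 to 6 occur in both groups, but same-numbered arrays deviated together weakly (correlations across genes from 0.06 to 0.20, above 0.1 in 3 of 4), so they were not taken as pairs. As a hint from the data, each cisplatin array correlated best with the control of its number, but control replicate 6 did so with cisplatin replicate 3 (0.11). With the replicate block, 4 of the 10 genes and 3447 of all genes were called; the call of Rrad was lost (adjusted p = 0.0550 by limma), Arfgap1 was called (0.0496), and other glycolysis steps and germ layer markers each went from 1 to 2 higher. A paired exact sign-flip test of the within-array shifts (-0.66 for Hk2 minus Hk1, and 0.37, -0.23 and -0.60 for the phosphofructokinase pairs, equal to the unpaired shifts by arithmetic) cannot give a p under 0.125 with 4 pairs, so it says nothing about them. Without the _a_at probe sets Pfkm minus Pfkl (0.30, also with the most variable ones) and Pfkp minus Pfkl (-0.30) missed the threshold; Pfkp minus Pfkm (-0.60), whose probe sets this leaves as they were, missed it only through the adjustment over the pairs. With 1 array left out, Pfkp minus Pfkl ran from -0.27 to -0.20 and missed it in 6 of 8 cases, namely without any 1 cisplatin array or control replicate 3 or 6 (exact adjusted p = 0.0571).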

Other observations

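Slc2a3, which encodes GLUT3, a glucose transporter of high affinity, was singled out after its values were seen. Its brightest probe set was not called, at -0.16 ± 0.06 (log2 change, cisplatin minus control, ± SE; limma adjusted p = 0.112 over all probe sets), while its 3 other probe sets were lower, at -0.22 ± 0.06 (adjusted p = 0.0446), -0.40 ± 0.07 (0.00445) and -0.45 ± 0.10 (0.0145). Their control means were 11.35, 6.69 and 4.86. Both probe sets of Lpin1 were higher, at 1.17 ± 0.15 and 1.57 ± 0.14, and both of Pck2 were lower, at -0.57 ± 0.09 and -0.42 ± 0.12 (limma adjusted p = 0.0408 for the dimmer).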
